A study of Mus musculus with 8 samples.

Results

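The alpha class of glutathione transferases was followed through 5 genes in mouse liver: Gsta1, Gsta2, Gm10639, Gsta3 and Gsta4. Members were the features (spots) whose gene symbol in the annotation of the array is one of these names, with Gm10639 taken as an alpha-class relative. They were 5 of the 20738 named genes on the array and 16 of its 62976 features: Gsta1 and Gsta2 had 1 feature each, Gm10639 and Gsta3 had 2 each, and Gsta4 had 10. Liver RNA of male mice of the outbred CD-1 stock was hybridised to 8 one-colour Agilent arrays. Of these, 4 arrays are of livers after 7 days on a diet with sodium phenobarbital (NaPB) at 2500 ppm, and 4 are of livers after 7 days on the control diet (0 ppm). The labels used here give no age, genetic change or further agent for either diet. No label says that arrays of a diet came from separate mice, so the p-values measure the spread between these samples alone.

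Glutathione transferases join the thiol of glutathione to reactive, electrophilic compounds, which are then exported from the cell. The cytosolic enzymes are dimers, and their subunits fall into classes named by Greek letters, among which the alpha class is abundant in hepatocytes. Phenobarbital activates CAR, a nuclear receptor of hepatocytes that switches on genes of drug metabolism, and alpha-class genes are among those long known to respond to such compounds in rodents; some also respond to Nrf2, the regulator of antioxidant genes. In mouse liver, Gsta3 encodes the main subunit present without any inducer and is known for conjugating the aflatoxin epoxide, Gsta1 and Gsta2 encode closely related inducible subunits, and Gsta4 encodes the subunit that prefers 4-hydroxynonenal, an aldehyde formed when membrane lipids are oxidised.

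On the assembly of the reference table, GRCm38.p6, the order of neighbouring genes on chromosome 9 is Gsta4, Gsta1, Gm3776, Gm10639, Omt2a, Omt2b and Gsta2, while Gsta3 lies on chromosome 1. The 250 bases before the transcript start are shown for the 4 members that have an entry in the RefSeq promoter table (build GRCm38.p6), because 3 of them rose on the NaPB diet and the fourth, Gsta3, did not pass the test. Capitals mark the longest run of bases common to the windows of Gsta1, Gsta2 and Gm10639. The sequences run 5′ to 3′ on the strand of the gene.
Gsta1, chr9:78230419-78230668, plus strand: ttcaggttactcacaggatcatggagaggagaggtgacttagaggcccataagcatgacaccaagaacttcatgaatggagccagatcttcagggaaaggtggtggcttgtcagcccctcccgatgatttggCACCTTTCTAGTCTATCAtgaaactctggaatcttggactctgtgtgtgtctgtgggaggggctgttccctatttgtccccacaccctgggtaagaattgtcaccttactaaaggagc
Gsta2, chr9:78347146-78347395, minus strand: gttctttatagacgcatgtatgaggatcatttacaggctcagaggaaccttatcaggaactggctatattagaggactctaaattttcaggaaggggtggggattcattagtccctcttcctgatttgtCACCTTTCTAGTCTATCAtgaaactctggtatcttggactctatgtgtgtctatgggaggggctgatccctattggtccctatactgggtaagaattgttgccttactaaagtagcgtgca
Gm10639, chr9:78289678-78289927, plus strand: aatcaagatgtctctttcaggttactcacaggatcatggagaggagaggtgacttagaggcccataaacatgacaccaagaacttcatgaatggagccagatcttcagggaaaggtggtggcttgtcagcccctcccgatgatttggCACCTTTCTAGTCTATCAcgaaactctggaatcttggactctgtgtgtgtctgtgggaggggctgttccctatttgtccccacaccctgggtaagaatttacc
Gsta3, chr1:21240335-21240584, plus strand: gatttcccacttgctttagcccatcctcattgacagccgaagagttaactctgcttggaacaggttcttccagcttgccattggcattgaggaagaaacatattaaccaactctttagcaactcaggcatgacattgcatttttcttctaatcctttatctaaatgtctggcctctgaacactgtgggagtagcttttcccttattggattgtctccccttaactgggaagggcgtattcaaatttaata

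The windows of Gsta1 and Gm10639 were identical at 232 of 235 aligned bases (98.7%), those of Gsta1 and Gsta2 at 184 of 239 (77.0%), and those of Gsta1 and Gsta3 at 140 of 220 (63.6%). The marked run is 18 bases long and was picked because it is shared. It stood in the windows of 4 of 27025 genes (0.0148%), which are the 3 members above and Gm3776, and Gsta3 did not hold it. On both strands, TGACNNNGC, the core of the antioxidant response element bound by Nrf2, matched once in Gsta3, starting 121 bases before the transcript start, and not in the other windows; 11.5% of all genes held it in windows of this length. AGGTCA, the single recognition motif of nuclear receptors such as CAR, matched in no window of the members and in 15.8% of all genes. The direct repeat of AGGTCA with 4 bases between, which contains that motif, matched in none of the members and in 0.0148% of genes. The palindromic site of HNF1, a liver regulator, also matched in none (0.0111% of genes), and TATAAA matched only in Gsta2, on the opposite strand 246 bases before the start (14.3% of genes). These matches describe letters in short windows alone.

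Among the 5 alpha-class genes, 3 rose on the NaPB diet and none fell, while 2 missed the threshold. Over all named genes, 0.391% rose and 0.617% fell by the same rule, an adjusted p below 0.05 in a limma model fitted to all 20738 genes (1.01% in either direction). That balance depended on single arrays: 81 of the 209 genes called were higher, but 211 of 365 without NaPB replicate 4, 77 of 145 without control replicate 1 and 458 of 812 with array weights. For 3 of the 5 every NaPB array lay above every control array, against 2.72% of all genes higher without overlap and 7.04% in either direction. Gsta1 rose 32.3-fold, Gsta2 16.0-fold and Gm10639 12.8-fold. Gsta3 was 0.907-fold and Gsta4 1.63-fold. The median log2 fold change of the 5 genes was 3.68, against 0.01 over all genes. Values are given as scaled intensity, the spot intensity as deposited, which had a 75th percentile of 0.952 to 0.974 on every array. Each gene is represented by its brightest feature unless stated, and intensities of different genes are not compared, since each probe has its own brightness. No feature of the 5 genes lay at the floor of any array (up to 2 times the lowest value of the array).

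Gsta1 encodes a subunit that conjugates electrophiles and also reduces organic peroxides. It had scaled intensities of 158, 185, 165 and 41.0 on NaPB replicates 1 to 4, against 4.34, 3.34, 2.49 and 5.01 on control replicates 1 to 4. The diets did not overlap: the lowest NaPB array lay well above the highest control array. The log2 fold change was 5.01 ± 0.48 (limma SE, 4 arrays per diet; limma adjusted p = 0.00158). NaPB replicates 1 to 3 stood close together at 5.43 to 5.65 log2 units above the control mean, and NaPB replicate 4 stood at 3.48.

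Gsta2, the near relative at the other end of the chromosome 9 group, had 69.1, 83.0, 73.2 and 24.8 on NaPB replicates 1 to 4, against 4.38, 3.17, 2.63 and 4.30 on control replicates 1 to 4. Its arrays fell in the same pattern as those of Gsta1, without overlap and with NaPB replicate 4 below the other NaPB arrays. The log2 fold change was 4.00 ± 0.40 (limma adjusted p = 0.0018).

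Gm10639, a gene between Gsta1 and Gsta2 that carries only a provisional name, was measured by 2 features. The brighter one had 223, 254, 221 and 84.3 on NaPB replicates 1 to 4, against 17.1, 12.4, 9.72 and 18.9 on control replicates 1 to 4, so that its log2 fold change was 3.68 ± 0.39 with a limma adjusted p of 0.0022. The dimmer one had 17.5, 19.7, 20.2 and 7.11, against 3.19, 2.20, 1.89 and 3.40, a log2 fold change of 2.53 ± 0.39 in the limma fit over all features (adjusted p = 0.0137). Both features were higher without overlap between the diets, by 12.8-fold and 5.76-fold. In the limma fit over all features, the dimmer one was not called without NaPB replicate 1 (adjusted p = 0.0550), NaPB replicate 3 (0.0526) or control replicate 3 (0.0544). The transcripts of Gsta1, Gsta2, Gm10639 and Gm3776 come from closely related neighbouring genes. Which of them each feature captured was not tested, and Gm3776 was not analysed here, so the separate values of Gsta1, Gsta2 and Gm10639 are uncertain in this respect.

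**Figure D1:**
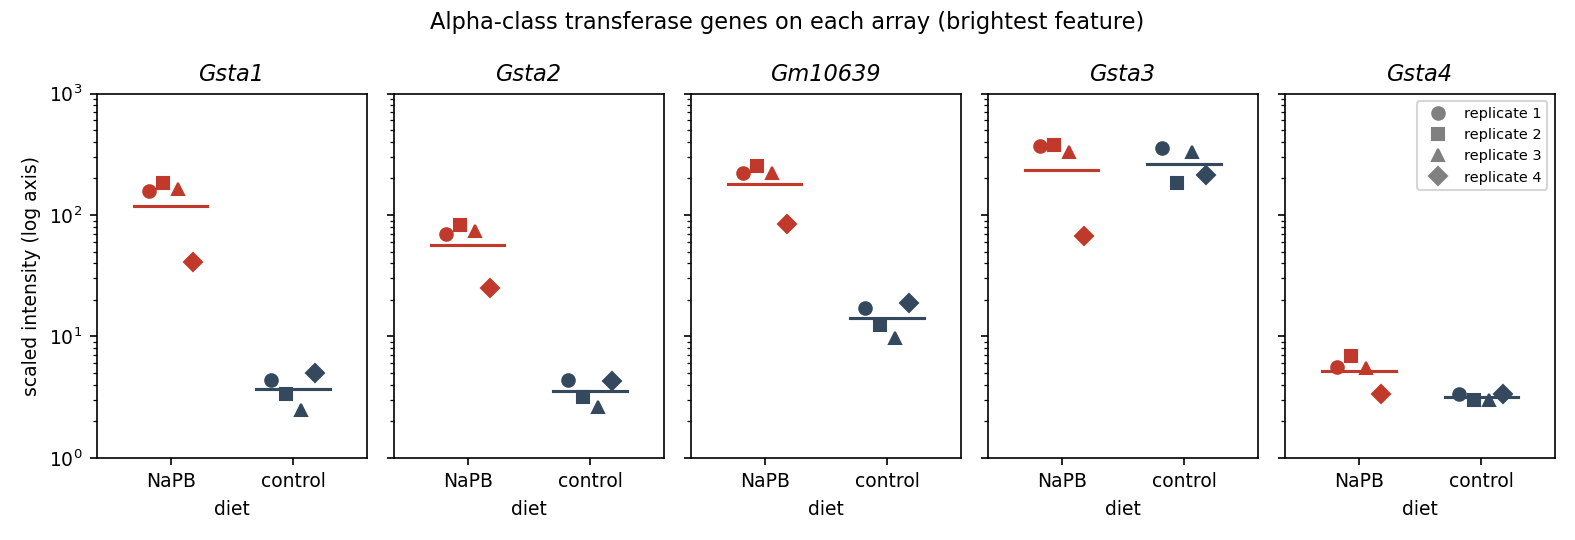
Scaled intensity (log axis) of the brightest feature of each of the 5 alpha-class genes on each array, NaPB diet left and control diet right; symbols are replicates 1 to 4 and lines are geometric means of 4 arrays. Gsta1, Gsta2 and Gm10639 lay higher on all NaPB arrays than on any control array, while for Gsta3 and Gsta4 the array of NaPB replicate 4 lay below or among the control arrays.

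Gsta3 did not pass the test. It had 371, 379, 329 and 67.5 on NaPB replicates 1 to 4, against 353, 184, 331 and 214 on control replicates 1 to 4. NaPB replicates 1 to 3 lay within or just above the control range, and NaPB replicate 4 lay below every control array. On the log2 scale the change was −0.14 ± 0.53, with a limma adjusted p of 0.959. Its dimmer feature had 103, 93.3, 90.4 and 18.1 on the NaPB arrays, against 66.5, 36.2, 67.0 and 47.0 on the control arrays, which is 0.26 ± 0.53 on the log2 scale, with a limma adjusted p of 0.919 over all features. The sign of the Gsta3 estimate thus differed between its features, though both estimates were smaller than their SE. That sign also turned on single arrays: the log2 fold change of the brighter feature was 0.46 without NaPB replicate 4 (limma adjusted p = 0.572) and 0.0045 without control replicate 1.

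The level of Gsta3 was set beside a property of the arrays. The 99th percentile of an array over its 75th percentile, a measure of how far bright features stand above the rest, was 113, 125, 107 and 62.3 on NaPB replicates 1 to 4 and 124, 65.8, 103 and 81.1 on control replicates 1 to 4. The arrays with the lowest ratio in each diet were also those with the lowest Gsta3. Their ratios were close, 62.3 on NaPB replicate 4 and 65.8 on control replicate 2, while Gsta3 had 67.5 and 184 there. After quantile normalization, which gives every array the same distribution, Gsta3 had 325, 322, 336 and 98.9 on the NaPB arrays, against 253, 255, 292 and 253 on the control arrays. The spread of the control arrays became small on that scale and NaPB replicates 1 to 3 lay above all of them, while NaPB replicate 4 stayed below. Quantile normalization without NaPB replicate 4, an alternative added after the data were seen, gave 0.32 ± 0.14 on the log2 scale (limma adjusted p = 0.30). The part of array scale in the Gsta3 result was not tested further.

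Gsta4, the subunit for 4-hydroxynonenal, did not pass the test either. Its brightest feature had 5.64, 6.91, 5.49 and 3.36 on NaPB replicates 1 to 4, against 3.36, 3.00, 3.01 and 3.36 on control replicates 1 to 4. NaPB replicates 1 to 3 were above every control array and NaPB replicate 4 lay level with the highest of them. The log2 fold change was 0.70 ± 0.28 (limma unadjusted p = 0.0305, adjusted p = 0.409), where 10.1% of all genes had an unadjusted p below 0.05. Leaving out NaPB replicate 2 gave the lowest value, 0.57, and leaving out NaPB replicate 4 the highest, 0.91, and Gsta4 passed in none of the fits that left out 1 array.

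All 10 features of Gsta4 had a log2 fold change above 0, between 0.43 and 0.83 with a median of 0.60, and none was called (limma adjusted p from 0.43 to 0.788 over all features). For all 10, NaPB replicates 1 to 3 lay above every control array. For 9 of the 10, NaPB replicate 4 lay below the control mean, and for 6 of them below every control array. Features of a gene were read on the same 8 arrays, so the counts of features given here are not independent. Probe sequences were not available, so whether the 10 features of Gsta4 repeat 1 probe was not tested. The deposited values of NaPB replicate 2 were coarse, with 3443 distinct values where every other array had 62756 or more, and several Gsta4 spots share a value there. Across the 10 spots of 1 array the log2 SD was 0.0926 to 0.191. The medians over the 10 spots were 5.64, 7.06, 4.67 and 2.82 on NaPB replicates 1 to 4, against 3.28, 3.04, 3.24 and 3.31 on control replicates 1 to 4. Across all members, 4 of 16 features were called higher and none lower, where 0.329% of all features were called higher and 1.02% in either direction. The same 4 had no overlap between the diets and were higher on the NaPB diet, as were 2.43% of all features.

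**Figure D2:**
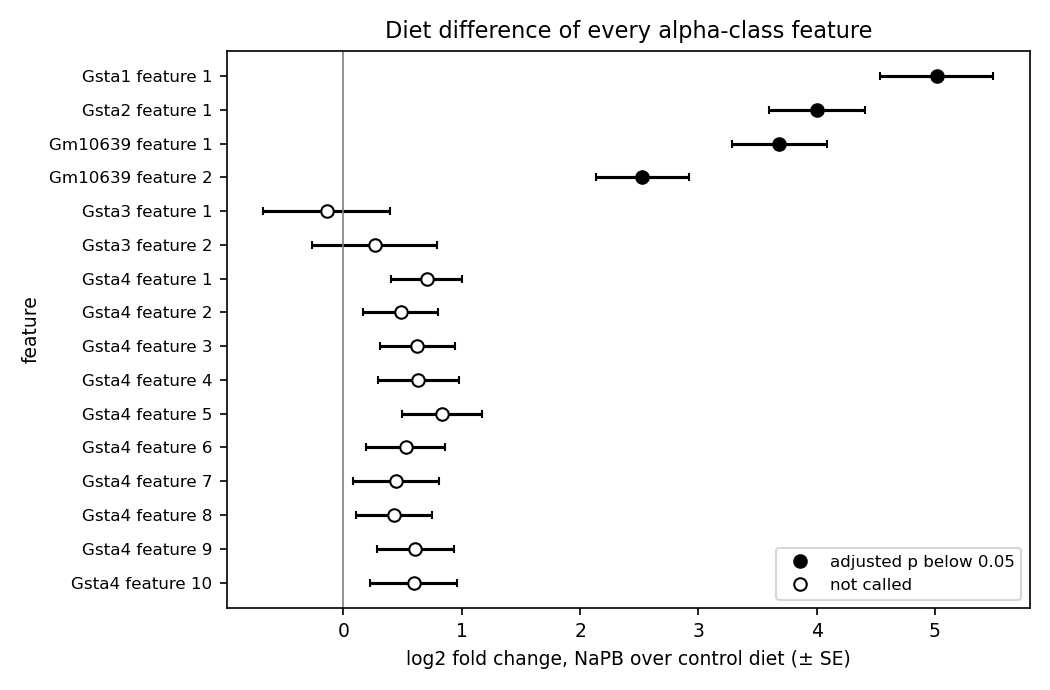
Log2 fold change, NaPB over control diet, of each of the 16 alpha-class features, with limma standard errors from the fit over all 62976 features; features of a gene are numbered from bright to dim, and filled points have an adjusted p below 0.05. The 4 filled points are those of Gsta1, Gsta2 and both features of Gm10639, from 2.53 to 5.01; the 10 features of Gsta4 lie between 0.43 and 0.83.

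The diet differences read by the features of the members were not all of the same size. For each of the 10 pairs of genes the log2 ratio of their intensities was taken on every array and compared between diets with an exact two-sided permutation test over the 70 assignments of arrays, whose smallest possible p is 0.0286. For 9 pairs the ratios of the diets did not overlap and p was 0.0286 (0.0317 adjusted over the 10 pairs). The Gsta1 to Gsta2 log2 ratio was higher by 1.01 ± 0.13 (SE) on the NaPB diet, averaging 1.06 ± 0.22 on NaPB arrays and 0.05 ± 0.13 on control arrays (SD, n = 4 each). The Gsta1 to Gm10639 ratio was higher by 1.33 ± 0.15, and by 1.91 when both Gm10639 features were averaged. The difference of Gsta2 from Gm10639 was small, 0.32 ± 0.07, and was 0.90 with both features averaged. Each of these 3 genes differed from Gsta3 and from Gsta4 by 2.98 to 5.15 log2 units. The remaining pair, Gsta3 against Gsta4, differed by −0.85 ± 0.46 (exact permutation p = 0.114, also 0.114 after adjustment). That difference was −2.03 on NaPB replicate 4 and −0.32 to −0.58 on the other NaPB arrays, and its mean was −0.45 without NaPB replicate 4. The pairs share genes and arrays and are not independent. The 2 features of Gm10639 alone had log2 fold changes of 3.68 and 2.53. How far unequal probe response sets the size of such differences was not tested.

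NaPB replicate 4 was the lowest NaPB array for all 5 genes. It lay below the mean of NaPB replicates 1 to 3 by 2.04 log2 units for Gsta1, by 1.59 for Gsta2, by 1.46 for Gm10639, by 2.41 for Gsta3 and by 0.83 for Gsta4. Over all genes the median of that difference was −0.20, and 43.7% of genes had NaPB replicate 4 as their lowest NaPB array. Over the 81 genes called higher the median was −0.92, and 60 of them had NaPB replicate 4 lowest. Over the 2074 genes from the 90th percentile of control intensity upward, where Gsta3 belongs, the median was −0.87, and 61 of those genes (2.94%) had a difference as low as that of Gsta3. Without NaPB replicate 4 the fold changes were 46.0 for Gsta1, 21.1 for Gsta2 and 16.5 for Gm10639, and these 3 were the members called, while 1.02% of all genes were called higher.

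**Figure D3:**
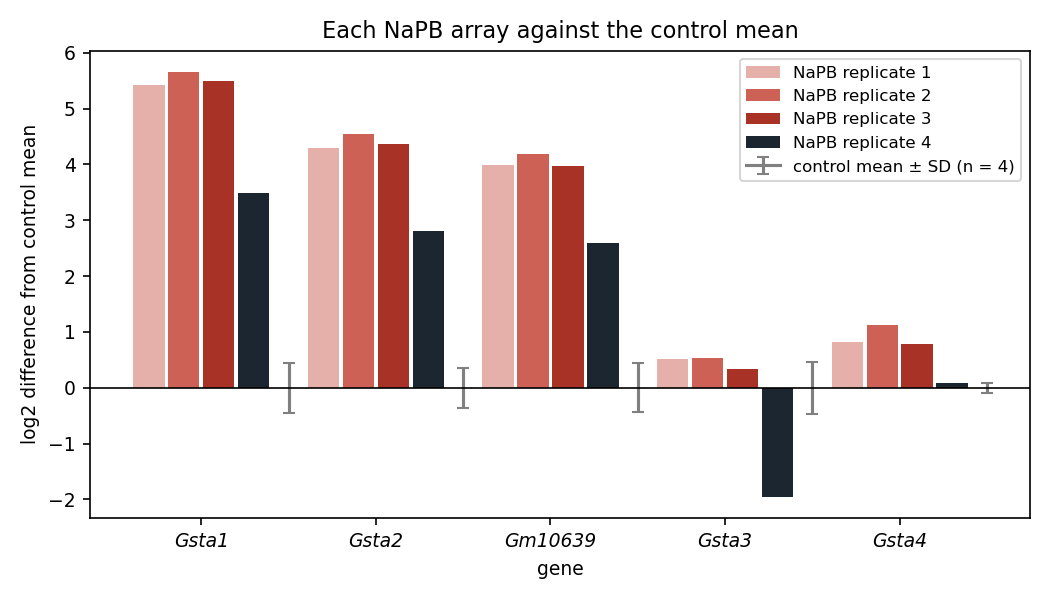
Log2 difference of each NaPB array from the mean of the 4 control arrays, for the brightest feature of each alpha-class gene; grey bars give the SD of the control arrays around their mean. NaPB replicate 4 is lowest for all 5 genes, at 3.48 for Gsta1 and at −1.95 for Gsta3.

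Among the other transferase classes, 5 of 7 mu-class genes rose and none fell, with a median log2 fold change of 2.49. The mu genes that rose were Gstm1 (7.74-fold), Gstm2 (10.6-fold), Gstm3 (44.2-fold), Gstm4 (5.35-fold) and Gstm5 (5.64-fold), with limma adjusted p from 0.00152 to 0.0127; Gstm4 lost its call when NaPB replicate 1 was left out (limma adjusted p = 0.0509) and with the mean of its features (0.133). Of 10 genes of the pi, theta and other classes, 1 rose and none fell, at a median of −0.08. It was Gstt3, a theta-class gene, 6.37-fold higher (limma adjusted p = 0.0433) and not called without any single array other than NaPB replicate 4 (adjusted p = 0.0609 when control replicate 3 was left out, up to 0.138 when NaPB replicate 1 was). Of the same list, Gstt1 (3.50-fold, limma adjusted p = 0.107) did not pass. Neither did Gsto2, which was lower without overlap between the diets (0.329-fold, limma adjusted p = 0.0628, 2 arrays at the floor). None of the 3 microsomal transferase genes passed (median 0.32), the smallest p being that of Mgst1 (0.47 ± 0.37, adjusted p = 0.766).

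The genes that supply and recycle glutathione itself did not pass in the fit over all 8 arrays. Without NaPB replicate 4, 15 glutathione pathway genes outside the alpha class were called instead of 8. Which lists they belong to is not given here. The mean log2 difference from control was 0.94, 0.87, 0.74 and −0.36 on NaPB replicates 1 to 4 for redox cycling. It was 0.10, −0.03, −0.07 and −0.62 for synthesis, and −0.18, −0.01, −0.21 and −0.47 for turnover. Of 10 genes of glutathione synthesis and cysteine supply none was called (median log2 fold change 0.14). They include Gclc and Gclm, the catalytic and modifier subunits of glutamate-cysteine ligase, at −0.80 ± 0.56 and 0.23 ± 0.30, and the smallest p belonged to Bhmt, of methionine metabolism, at −1.10 ± 0.38 (limma adjusted p = 0.295). Slc7a11, the cystine importer, was at the floor on all 8 arrays. None of 10 genes of glutathione turnover passed (median −0.09); Nat8, which acetylates cysteine conjugates, had the smallest p at −1.32 ± 0.49. None of 12 genes of glutathione redox cycling passed (median 0.61, 9 above 0); Glrx, which encodes glutaredoxin, had the smallest p at 1.22 ± 0.39, and Gsr, glutathione reductase, stood at 0.56 ± 0.41. Of 6 measured conjugate exporters 1 rose, Abcc4, 6.29-fold (limma adjusted p = 0.0421). Of 9 measured other enzymes of 4-hydroxynonenal removal 1 rose, Aldh1a7, 4.29-fold (limma adjusted p = 0.0321). Neither call is firm: Abcc4 was not called without any single array other than NaPB replicate 4 (adjusted p = 0.0648 when control replicate 1 was left out, up to 0.136 when NaPB replicate 1 was), nor Aldh1a7 without any other than NaPB replicate 4 or control replicate 1 (0.0923 when control replicate 2 was left out, up to 0.119 when NaPB replicate 1 was). With medians set equal or with a pseudocount of 1, Gstt3 (adjusted p = 0.0572 and 0.0997), Abcc4 (0.0563 and 0.164) and Aldh1a7 (0.0576 and 0.0596) were not called either, nor was Abcc4 after quantile normalization (0.0854).

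**Figure D4:**
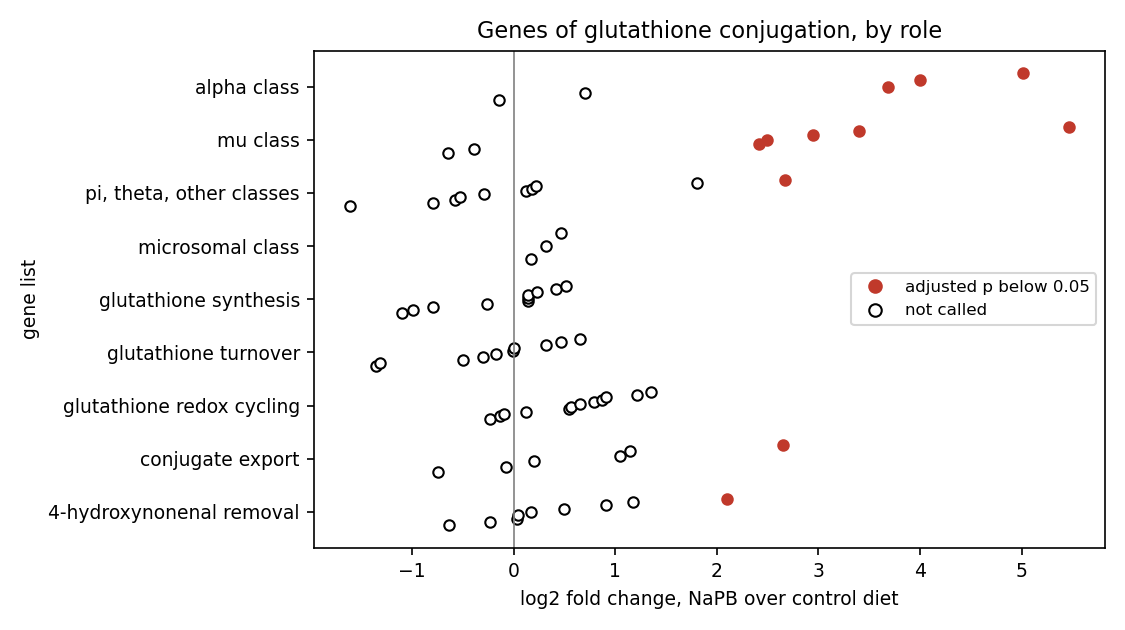
Log2 fold change, NaPB over control diet, of each measured gene in 9 lists of glutathione conjugation, one point per gene; filled points have a limma adjusted p below 0.05 over all genes. The filled points lie mostly in the alpha class (3 of 5) and the mu class (5 of 7), with 1 each in the pi, theta and other classes, conjugate export and 4-hydroxynonenal removal.

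Of 4 measured marker genes of CAR and PXR, 2 rose and none fell (median log2 fold change 4.63), Cyp2b10 and Cyp2c55; Cyp2c55 was at the floor on 3 arrays and was not called with a pseudocount of 1 (limma adjusted p = 0.0592). Por (6.10-fold, limma adjusted p = 0.0761, higher without overlap between the diets) and Cyp3a11 (2.37-fold, limma adjusted p = 0.237) did not pass. Cyp2b10, the P450 gene classically induced through CAR, rose 114-fold. It had 521, 491, 430 and 77.7 on NaPB replicates 1 to 4, so that NaPB replicate 4 was again the lowest NaPB array, against 3.72, 0.863, 2.98 and 5.22 on control replicates 1 to 4. Of 8 marker genes of Nrf2 outside the glutathione enzymes none passed (median 0.30). Nqo1, the most used of them, had a log2 fold change of −0.21 ± 0.51 with 5 of 8 arrays at the floor, and its sign turned under several alternatives. Ephx1 (1.54 ± 0.33, limma adjusted p = 0.0636) had the smallest p. It was higher without overlap between the diets, as was Cbr3 (6.23-fold, limma adjusted p = 0.0757, 1 array at the floor). Hmox1 was lower without overlap (0.704-fold, limma adjusted p = 0.587). The mean log2 difference of the 8 Nrf2 markers from control was 0.89, 0.95, 0.89 and −0.75 on NaPB replicates 1 to 4. None of 12 measured regulators passed. Nr1i3, which encodes CAR, stood at −0.21 ± 0.33, Nfe2l2, which encodes Nrf2, at 0.69 ± 0.51, and Ahr, the gene of the Ah receptor and that with the smallest p, at 0.92 ± 0.54.

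The genes nearest to Gsta1 over the 8 arrays, by the root mean square difference of log2 values after subtraction of each gene's control mean and among 10364 brighter non-member genes, were Gstm3 (0.59), Mical1 (0.64), Cyp2b9 (0.71), 1810053B23Rik (0.74) and Meig1 (0.76). Gsta2 lay at 0.73 and Gm10639 at 0.96 by the same measure. These distances hold mainly the size of the diet difference, which was 24.8-fold to 52.4-fold for the 5 genes. The genes nearest to Gsta4 were Rpl12-ps1, Kmt5a, Necap1, Katna1 and Ces2g, at 0.12 to 0.14. None of these was called, like Gsta4.

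The measured genes among and next to the chromosome 9 group did not pass. Omt2a and Omt2b, which lie between Gm10639 and Gsta2, had log2 fold changes of −0.31 ± 0.29 and −0.32 ± 0.29. Cilk1 and Fbxo9, beyond Gsta4, had −0.48 ± 0.27 and −0.02 ± 0.30, and Dppa5a and Ooep, beyond Gsta2, had 1.18 ± 0.32 and 1.00 ± 0.64. The limma adjusted p of these 6 genes lay between 0.15 and 0.994.

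All 10 hepatocyte marker genes were measured, none at the floor on all arrays, and none passed (median −0.16). Their summed scaled intensities were 1617 to 2084 on NaPB arrays and 1665 to 2612 on control arrays. The highest NaPB sum was that of NaPB replicate 4, where Fgb had 680 and Hpx 740. On NaPB replicates 1 to 3 Fgb had 161 to 191 and Hpx 416 to 429. Alb (0.423-fold, limma adjusted p = 0.19) and Apoa1 (0.500-fold, 0.167) were lower without overlap between the diets. Hpx was higher without overlap (1.58-fold, limma adjusted p = 0.438). In whole liver, fewer cells of a type and less RNA per cell cannot be told apart. Kupffer cell markers (8 measured, median −0.41, sums of 21.4 to 25.05 on NaPB and 29.5 to 31.8 on control arrays, Timd4 at the floor on all arrays) had no called gene. Only 1 of the 8 had a log2 fold change above 0. Clec4f (0.706-fold, limma adjusted p = 0.563), Vsig4 (0.736-fold, 0.628) and Adgre1 (0.577-fold, 0.426) were lower without overlap between the diets. Over all genes, 7.04% had no overlap in either direction. Cholangiocyte markers had sums of 3.56 to 4.87 on NaPB and 1.95 to 5.20 on control arrays, with a median log2 fold change of 0.13. Endothelial markers had 117 to 193 on NaPB and 92.7 to 191 on control arrays (median −0.01), of which Kdr alone gave 106 to 178 and 80.3 to 170. Stellate cell markers had 18.7 to 33.1 on NaPB and 26.0 to 44.4 on control arrays (median 0.25), of which Dcn gave 15.2 to 30.9 and 23.2 to 42.0. Reln, of the same list, was lower without overlap (0.524-fold, limma adjusted p = 0.225). Small intestine markers had 4.79 to 14.6 on NaPB and 9.48 to 22.3 on control arrays (median −0.46), of which Fabp2 gave 3.91 to 13.6 and 8.81 to 21.6. The endothelial, stellate and small intestine sums thus follow 1 probe each. No gene of the cholangiocyte, endothelial, stellate or small intestine lists was called. Of 5 measured neutrophil markers 1 rose, S100a8, 86.5-fold (limma adjusted p = 0.0176), while the other 4 did not pass. The sums over that list, 11.7 to 137 on NaPB and 3.31 to 4.88 on control arrays, were mostly S100a8 on NaPB replicates 1 to 3, where it had 46.3, 126 and 71.0, against 2.02 on NaPB replicate 4 and 0.246 to 0.464 on control arrays. The part of other cell types in the alpha-class result was not tested.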

How the data were processed

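The table deposited by the authors held linear spot intensities with a 75th percentile of 0.952 to 0.974 on each array; the scans were quantified with Agilent Feature Extraction 10.7, per the submitters' processing notes. How background and scale were treated is not given in the sources used here. Of 62976 features, 31465 had 1 gene symbol and 31511 none; symbols were updated through reference tables of GRCm38.p6 (3282 features changed). Log2 of the deposited intensity went into limma 3.58.1 (R 4.3.3) with diet as the only term and no pseudocount or filter, over 20738 genes (brightest feature each) and over all features, with Benjamini-Hochberg adjustment. The number of arrays limits the precision. Members and gene lists were chosen with earlier results of these data known. Named genes are the members, each list's called genes or its gene with the smallest p, index genes, and the 5 genes nearest to Gsta1 and to Gsta4. Gclc, Gclm, Gsr, Slc7a11, Nr1i3, Nfe2l2, Cbr3, Hmox1, Timd4, S100a8, Alb, Apoa1, Fgb, Hpx, Kdr, Dcn, Fabp2 and the chromosome 9 neighbours were named after their values were seen. The same holds for Por, Cyp3a11, Gstt1, Gsto2, Clec4f, Vsig4, Adgre1 and Reln. Alternatives were other scalings, filters, pseudocounts, variance models, weighted arrays, a block for replicate number, and omitted arrays. Promoter windows came from RefSeq, aligned with Biopython 1.88. Figures used Python 3.11.15 and matplotlib 3.10.9.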

Additional observations from a re-analysis of the deposited data

Results flagged for a closer look

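On the NaPB diet, replicate 4 lay far below the other 3 arrays, by Dixon's ratio of the gap to the whole range (beyond Dixon's 95% critical value for 4 samples), for 7 of the 16 alpha-class features. The ratio was 0.895 for Gsta1, 0.849 for Gsta2, 0.871 and 0.862 for the brighter and dimmer feature of Gm10639, 0.919 and 0.924 for those of Gsta3, and 0.899 for the dimmest feature of Gsta4. Of the other genes, only those called in the glutathione lists and in the CAR and PXR list, and Nqo1, were examined in this way. Among them the same array was as far below the rest for Cyp2b10 (0.898), Gstm1 (0.902), Gstm2 (0.874), Gstm3 (0.868), Gstm4 (0.908) and Aldh1a7 (0.899). No control array was so far from its group in the features and genes examined. Other genes named above were not examined in this way. They include Gsr, with 4.96, 5.06, 4.92 and 1.48 on NaPB replicates 1 to 4. They also include Ephx1, with 53.6, 31.5, 52.0 and 50.0 on control replicates 1 to 4. In all, 54 groups of 4 arrays were examined and 13 passed the critical value, where chance gives about 1 in 20; the genes share the same arrays and are not independent.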

How the results depend on the processing

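Gsta1, Gsta2 and Gm10639 were called higher in all 21 alternatives run on the gene fit, with log2 fold changes of 4.67 to 5.60, 3.67 to 4.50 and 3.10 to 4.14; Gsta4 was called in none (0.57 to 0.94). Gsta3 was called in none and turned positive with the mean of its features (0.061), array weights (0.41), without control replicate 1 and NaPB replicate 4 together (0.61), with quantile normalization without NaPB replicate 4 (0.32), without NaPB replicate 4 (0.46) and without control replicate 1 (0.0045); leaving out 1 array gave −0.37 to 0.46. Nqo1, from −0.47 to 0.18 with 1 array left out, turned positive with quantile normalization (0.0067, and 0.24 without NaPB replicate 4 as well), without NaPB replicate 4 (0.18), without control replicate 4 (0.15) and without control replicate 1 and NaPB replicate 4 (0.16). The number of all genes called, 209, was 328 with quantile normalization, 111 with the median shift, 812 with array weights, 570 without control replicate 1 and NaPB replicate 4, 607 with quantile normalization without NaPB replicate 4, and 88 to 365 with 1 array left out. The number of other glutathione pathway genes called, 8, was 5 with the median shift and with a pseudocount of 1, 15 with array weights, 17 without control replicate 1 and NaPB replicate 4, 20 with quantile normalization without NaPB replicate 4, and 4 to 15 with 1 array left out. The alpha-class features called were 3 to 4 with 1 array left out. Both alternatives that combine the omission of NaPB replicate 4 with a further change were chosen after seeing the data. The causes were not tested.

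With the replicate number as a block 135 genes were called, and 3 alpha-class genes, 4 alpha-class features and 8 other pathway genes as before. Deviations of same-numbered arrays correlated at 0.23, −0.29, 0.04 and 0.23, and 2 of 8 arrays were closest to their own number. The sample titles carry other numbers for the NaPB arrays than for the control arrays, and no label pairs arrays across the diets. With 4 arrays per diet these values cannot show whether same-numbered arrays shared any processing.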
